A study of Mus musculus with 8 samples.

Results

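Genes that govern entry into the cell cycle and the response to p53 were followed across the livers of mice lacking the bile acid receptor FXR, with or without the transcriptional repressor BCL6 in hepatocytes. The genes were *Cdkn1a*, *Cdkn2c*, *Ccnd1*, *Ccnd2*, *Btg2*, *Gadd45a*, *Gadd45b*, *Gadd45g*, *Mdm2* and *Trp53inp1*. They were taken from the table of read counts by gene symbol, and each was found once, giving 10 of its 24940 genes. The set was chosen with earlier results of these data known. Poly(A) RNA was sequenced from 8 livers of male C57BL/6 mice, 1 liver per library, 4 per genotype. FXRKO livers (1 to 4) carried floxed *Bcl6* alleles, Bcl6(fl/fl), with homozygous loss of FXR, which is encoded by *Nr1h4*. BCL6LKOFXRKO livers (5 to 8) carried the same alleles together with Alb-Cre, a recombinase driven by the albumin promoter and therefore active in hepatocytes. FXR was missing from both groups and from all cells of the animals, so every comparison here was made without FXR. Cre was present only in the BCL6LKOFXRKO group, and loss of BCL6 and presence of Cre cannot be told apart. The animals' age was not given in the sources used here, nor whether these livers came from fed or briefly fasted mice.

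A cell leaves quiescence when D-type cyclins, which accumulate in G1, bind and activate the kinases CDK4 and CDK6, and CDK inhibitors of the INK4 and CIP/KIP families oppose that step. p53 is a transcription factor stabilised by DNA damage and other stress. It induces the CDK inhibitor p21 (*Cdkn1a*), antiproliferative genes such as *Btg2*, the stress sensor *Gadd45a*, and its own ubiquitin ligase *Mdm2*, which closes a feedback loop. In germinal centre B cells, BCL6 is known as a repressor of *CDKN1A* and *CCND2*. Adult hepatocytes are mostly quiescent and re-enter the cycle after injury.

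Libraries held 7586241 to 10056721 counts in FXRKO and 9156775 to 11839503 in BCL6LKOFXRKO livers, so a gene with 0 counts could have been present at up to 3 counts, or 0.253 to 0.395 CPM depending on the liver. CPM gives counts relative to the library total, here corrected by TMM factors for differences in library composition, and is the unit of all levels not given per length. *Bcl6* was 56.2, 65.1, 21.1 and 55.6 CPM in FXRKO livers 1 to 4 and 11.9, 4.61, 5.54 and 7.71 CPM in BCL6LKOFXRKO livers 5 to 8, a log2 fold change of -2.72 (SE 0.40, edgeR adjusted p = 0.00124). *Nr1h4* still gave 56.7 to 62.6 CPM in FXRKO and 39.4 to 48.1 CPM in BCL6LKOFXRKO livers. Whether those reads cover the deleted part cannot be told from counts per gene, so *Nr1h4* does not check the label. Albumin took 4.04% to 5.16% of counts in FXRKO and 11.9% to 13.2% in BCL6LKOFXRKO livers, so the defining hepatocyte marker was abundant in both.

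RefSeq promoter windows (GRCm38.p6, the same build as the mm10 coordinates of the count table), running from 250 bases before to 50 bases after a start site, were found for 7 of the 10 genes, 9 windows in all. Of these, 3 held the p53 decamer, the 10-base consensus that p53 binds as a pair, searched on both strands. They are shown because each holds a match to this decamer, which is not by itself a full p53 element, and the matches are in capitals. The *Cdkn1a* window lies at chr17:29090729-29091028 on the + strand, around a start site 2790 bases before the gene's start in the count table. The *Mdm2* window lies at chr10:117710709-117711008 and the *Gadd45a* window at chr6:67037358-67037657, both on the - strand and around the start used in the table.
Cdkn1a: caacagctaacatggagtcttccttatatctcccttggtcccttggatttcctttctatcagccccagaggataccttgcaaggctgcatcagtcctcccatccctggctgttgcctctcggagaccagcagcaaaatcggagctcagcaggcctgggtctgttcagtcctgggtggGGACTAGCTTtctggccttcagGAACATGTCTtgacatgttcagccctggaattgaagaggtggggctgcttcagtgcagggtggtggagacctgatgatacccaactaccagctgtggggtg
Mdm2: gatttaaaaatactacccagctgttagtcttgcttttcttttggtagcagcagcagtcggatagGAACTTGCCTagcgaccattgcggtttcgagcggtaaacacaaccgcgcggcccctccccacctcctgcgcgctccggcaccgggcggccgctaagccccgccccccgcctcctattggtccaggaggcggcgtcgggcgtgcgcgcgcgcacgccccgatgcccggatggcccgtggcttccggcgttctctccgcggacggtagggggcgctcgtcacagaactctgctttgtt
Gadd45a: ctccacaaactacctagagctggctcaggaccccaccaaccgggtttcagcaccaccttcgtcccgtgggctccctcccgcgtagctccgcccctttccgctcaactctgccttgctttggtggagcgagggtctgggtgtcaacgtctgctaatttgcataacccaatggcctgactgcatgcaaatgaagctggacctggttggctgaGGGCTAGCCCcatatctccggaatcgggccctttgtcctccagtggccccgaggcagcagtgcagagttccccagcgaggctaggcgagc
Counted from the start site, the *Cdkn1a* decamers span -73 to -64 and -51 to -42, the *Mdm2* decamer -186 to -177, and the *Gadd45a* decamer -40 to -31. Only single decamers met the full consensus at *Mdm2* and *Gadd45a*. Inexact matches were not marked, so the capitals do not show which bases form a bound pair. No match lay in the second *Cdkn1a* window, in either *Cdkn2c* window, or in those of *Btg2*, *Gadd45b* and *Gadd45g*. A decamer was present in 8.36% of all 32817 windows. The core that STAT proteins and BCL6 recognise, TTCNNNGAA, was in 8.29% of all windows and the E2F core TTTGGCGC in 0.515%. Neither was in a window of the 10 genes. These are matches of letters and not measured binding.

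All 10 genes passed the filter on low counts. In BCL6LKOFXRKO livers, 6 of them rose (*Cdkn1a*, *Gadd45b*, *Btg2*, *Cdkn2c*, *Ccnd1* and *Ccnd2*), where 16.2% of all 12340 tested genes were called higher by edgeR's quasi-likelihood test at an adjusted p under 0.05. None was called lower, against 13.5% of all genes, and none was lower at an unadjusted p under 0.05 or by DESeq2 or limma. The same 6 were higher in every BCL6LKOFXRKO liver than in any FXRKO liver, as were 16.1% of all tested genes, while 15.2% of all genes separated in the opposite direction. The median log2 fold change of the 10 was 0.99, against 0.01 over all tested genes. The 4 that were not called were *Gadd45a*, *Mdm2*, *Trp53inp1* and *Gadd45g*. Scaling by total counts alone moved the median of all genes by -0.16 and the split of calls from 1994 higher and 1665 lower (54.5% higher) to 1403 higher and 2956 lower (32.2% higher), and under it 6 of the 10 genes were still called higher.

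**Figure D1:**
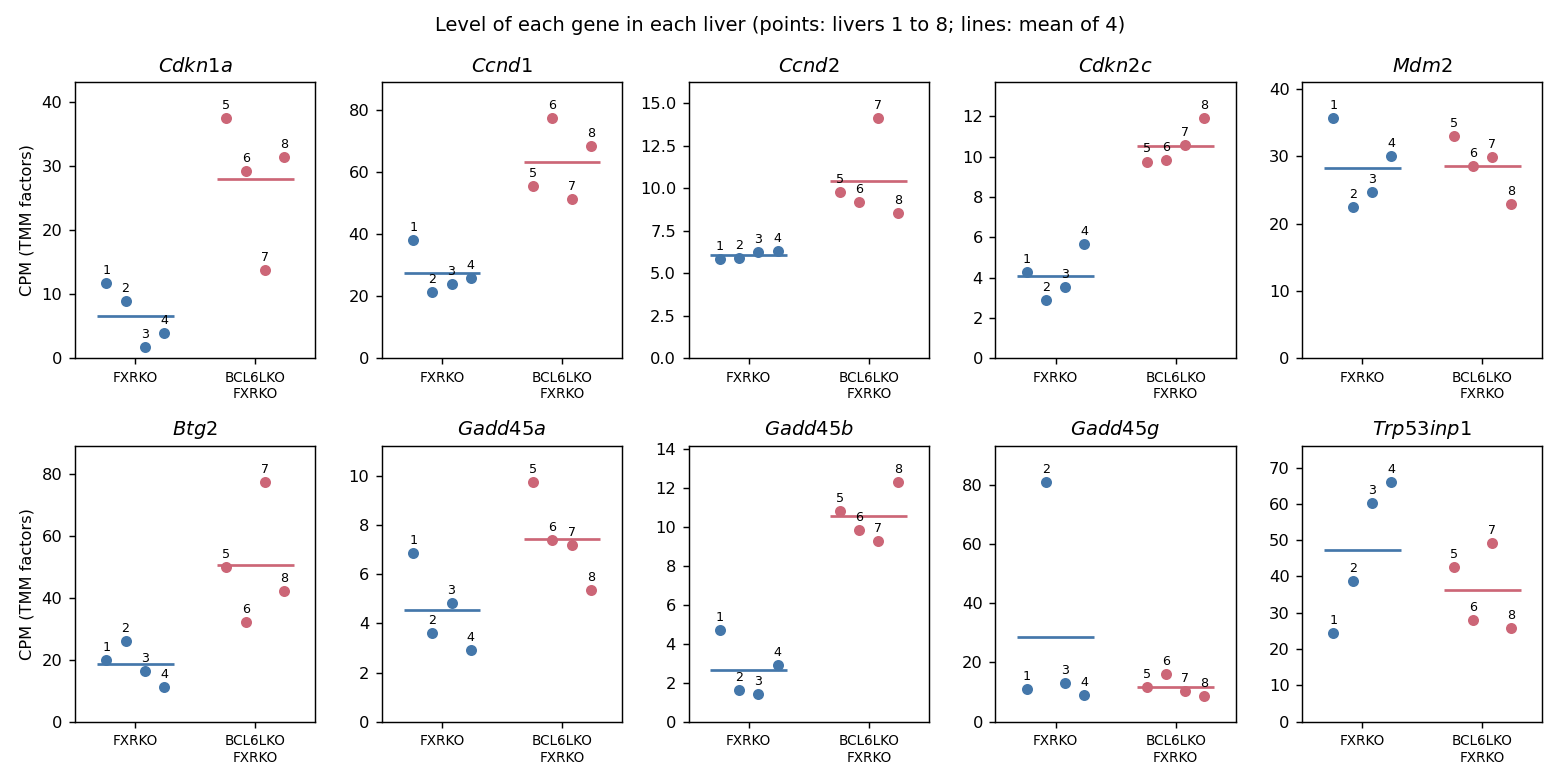
Level of each of the 10 genes in CPM (y axis, from 0, a separate scale for each gene) in the 4 FXRKO livers and the 4 BCL6LKOFXRKO livers (x axis); points are single livers with their number, lines are group means. *Cdkn1a*, *Ccnd1*, *Ccnd2*, *Cdkn2c*, *Btg2* and *Gadd45b* do not overlap between genotypes, and *Gadd45g* in liver 2 (81 CPM) stands apart from every other liver.

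The CDK inhibitor genes *Cdkn1a* and *Cdkn2c* rose in the same group of livers as the cyclin genes *Ccnd1* and *Ccnd2*. *Cdkn1a* (NM_007669, chr17:29093769-29100722, + strand), encoding p21, which blocks cyclin-CDK complexes, had 11.8, 8.99, 1.72 and 3.97 CPM in FXRKO livers 1 to 4 and 37.5, 29.3, 13.8 and 31.4 CPM in BCL6LKOFXRKO livers 5 to 8. Every BCL6LKOFXRKO liver was above every FXRKO liver, although the highest FXRKO liver (1) and the lowest BCL6LKOFXRKO liver (7) came close. The mean went from 6.63 ± 4.62 to 28 ± 10.1 CPM (SD, n = 4 each), a 4.25-fold rise (log2 fold change 2.09, SE 0.54, edgeR adjusted p = 0.0229). *Cdkn1a* was also the most variable of the called genes in FXRKO livers, with a coefficient of variation of 69.7%, where counting error alone would give 12.8%. Its call did not survive leaving out liver 4, 5 or 8 (edgeR adjusted p = 0.0539, 0.0542 and 0.0654), with log2 fold changes of 1.89, 1.91 and 2.03, or testing without the filter on low counts (adjusted p = 0.0558).

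*Cdkn2c* (NM_001301368, chr4:109660876-109666756, - strand) encodes p18INK4c, an inhibitor specific to CDK4 and CDK6. Its levels were 4.26, 2.87, 3.54 and 5.67 CPM in FXRKO livers and 9.76, 9.82, 10.6 and 11.9 CPM in BCL6LKOFXRKO livers. The groups were well apart, and the BCL6LKOFXRKO livers varied less (9.4%) than the FXRKO livers (29.3%, as coefficients of variation). The mean rose from 4.09 ± 1.2 to 10.5 ± 0.988 CPM (SD, n = 4 each), 2.55-fold (log2 fold change 1.35, SE 0.21, edgeR adjusted p = 0.000353). Among CDK inhibitors listed for comparison, 5 of 8 were abundant enough to test and 3 were called higher (60%, against 16.2% of all tested genes). The third was *Cdkn1c*, which encodes the CIP/KIP inhibitor p57 (log2 fold change 1.18, edgeR adjusted p = 0.0293). Leaving out *Cdkn1a* and *Cdkn2c*, 1 of the other 3 was called higher (33.3%), and their median log2 fold change was 0.06. The call of *Cdkn1c* was lost without liver 2, 3 or 8 (edgeR adjusted p = 0.0746, 0.0819 and 0.0956). Without liver 8 only 1 of the 5 was called, *Cdkn2c*. *Cdkn1b*, encoding p27, had a log2 fold change of -0.04 (edgeR adjusted p = 0.909).

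Among the D-type cyclins, *Ccnd1* and *Ccnd2* rose and *Ccnd3* fell. *Ccnd1* (NM_007631, chr7:144929931-144939925, - strand), the cyclin D1 gene that is induced when hepatocytes enter G1, was at 38, 21.2, 24 and 26 CPM in FXRKO livers and at 55.3, 77.2, 51.4 and 68.2 CPM in BCL6LKOFXRKO livers. Liver 1 was the highest of the FXRKO group and still below all BCL6LKOFXRKO livers. The rise was 2.3-fold, from 27.3 ± 7.41 to 63 ± 11.9 CPM (SD, n = 4 each; log2 fold change 1.20, SE 0.18, edgeR adjusted p = 0.000409). The span of *Ccnd1* overlaps that of *Oraov1*, on the opposite strand, by 818 bases, and *Oraov1* was itself higher (log2 fold change 1.04, edgeR adjusted p = 0.00111). The library kit kept strand but the sources used here do not say that counting did, so reads in the overlap could count for either gene.

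*Ccnd2* (NM_009829, chr6:127125709-127151048, - strand), encoding cyclin D2, was nearly flat over FXRKO livers at 5.82, 5.87, 6.23 and 6.33 CPM. In BCL6LKOFXRKO livers it was at 9.76, 9.21, 14.1 and 8.52 CPM, with liver 7 above the other three. Means were 6.06 ± 0.256 and 10.4 ± 2.52 CPM (SD, n = 4 each), a 1.71-fold rise (log2 fold change 0.78, SE 0.19, edgeR adjusted p = 0.00715). The FXRKO livers varied by 4.22%, less than the 13.2% that counting error alone gives, so their closeness is no measure of biological spread.

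*Ccnd3*, encoding cyclin D3, went the other way, from 51.8, 50.9, 52.7 and 55 CPM in FXRKO to 40.3, 42.9, 36.6 and 43.8 CPM in BCL6LKOFXRKO livers (log2 fold change -0.36, SE 0.10, edgeR adjusted p = 0.0182), a call lost without liver 4 or 7 (edgeR adjusted p = 0.0513 and 0.0528). The 3 cyclins were compared per length, as RPKM, CPM divided by exon length in kilobases. Their sum was 34.9 ± 2.1 RPKM in FXRKO and 39.2 ± 4.26 RPKM in BCL6LKOFXRKO livers (SD, n = 4 each). Within that sum, the share of *Ccnd1* went from 20.5% ± 4.37 (17.3% to 26.9%) to 42.2% ± 3.42 (39.2% to 46.6%). The share of *Ccnd3* went from 76.5% ± 4.16 (70.4% to 79.6%) to 53.1% ± 2.46 (49.8% to 55.7%). *Ccnd2* stayed the smallest, at 3.02% ± 0.211 and 4.72% ± 1.64. None of the 3 shares overlapped between genotypes (exact two-sided permutation p = 0.029 each, the smallest that 4 against 4 livers can give). The shares make up a whole and so depend on one another. They restate the separation of the 3 genes already seen in CPM and are not separate results.

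*Btg2* (NM_007570, chr1:134074865-134079155, - strand) encodes an antiproliferative protein that is both an early response gene and a p53 target. Its levels were 20, 26.1, 16.5 and 11.3 CPM in FXRKO and 49.9, 32.1, 77.4 and 42.3 CPM in BCL6LKOFXRKO livers. Liver 7 was the highest for *Btg2*, as it was for *Ccnd2*, and was the lowest of its group for *Cdkn1a*. The mean rose from 18.5 ± 6.19 to 50.4 ± 19.4 CPM (SD, n = 4 each), 2.75-fold (log2 fold change 1.46, SE 0.31, edgeR adjusted p = 0.00616). In the BTG and TOB family, to which *Btg2* belongs, 1 other of the 5 genes was called, *Tob2*, which was lower (log2 fold change -0.76, edgeR adjusted p = 0.00142). With *Btg2*, 20% of the family was called higher and 20% lower, against 16.2% and 13.5% of all tested genes.

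The GADD45 genes, which encode small stress-induced proteins that bind cell cycle and MAP kinase regulators, behaved unequally. *Gadd45b* (NM_008655, chr10:80930091-80932204, + strand), the member induced by cytokines and by partial hepatectomy, had 4.68, 1.62, 1.4 and 2.93 CPM in FXRKO and 10.8, 9.82, 9.24 and 12.3 CPM in BCL6LKOFXRKO livers. All BCL6LKOFXRKO livers were above all FXRKO livers. It rose 3.91-fold, from 2.66 ± 1.51 to 10.5 ± 1.35 CPM (SD, n = 4 each; log2 fold change 1.97, SE 0.30, edgeR adjusted p = 0.000349), on counts of only 13 to 45 per FXRKO liver.

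*Gadd45a* (NM_007836, chr6:67035096-67037407, - strand), the p53-induced member whose promoter window is shown above, was at 6.86, 3.62, 4.83 and 2.93 CPM in FXRKO and 9.76, 7.39, 7.2 and 5.35 CPM in BCL6LKOFXRKO livers. FXRKO liver 1 was above BCL6LKOFXRKO liver 8, so the groups overlapped. The log2 fold change was 0.70 (95% interval 0.12 to 1.28, not adjusted for the number of genes), with an edgeR adjusted p of 0.0658. It passed the threshold without liver 1 (log2 fold change 0.96, edgeR adjusted p = 0.0172), without liver 8 (0.83, adjusted p = 0.0353) and in limma (0.91, adjusted p = 0.0115). A transcript on the opposite strand, *E230016M11Rik*, overlaps 809 of its 2312 bases.

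*Gadd45g* (NM_011817, chr13:51846675-51848474, + strand) was at 11.2, 81, 13.2 and 9.07 CPM in FXRKO and 11.6, 16.1, 10.3 and 8.61 CPM in BCL6LKOFXRKO livers. Liver 2, with 649 counts, was far above every other liver of either genotype, and the remaining 7 overlapped. The log2 fold change of -1.29 (edgeR adjusted p = 0.271) became 0.05 without liver 2 (edgeR adjusted p = 0.891). Liver 2 did not stand apart in *Gadd45a* or *Gadd45b*. Per length, *Gadd45b* made up 11.1% ± 8.44 of the RPKM summed over the 3 GADD45 genes in FXRKO livers (1.62% to 18.8%) and 33.6% ± 7.33 in BCL6LKOFXRKO livers (27% to 44.1%; SD, n = 4 each, exact two-sided permutation p = 0.029). The share of *Gadd45g* was 52.8% to 94.7% in FXRKO and 36.1% to 52% in BCL6LKOFXRKO livers, and that of *Gadd45a* overlapped between genotypes. These shares also depend on one another.

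**Figure D2:**
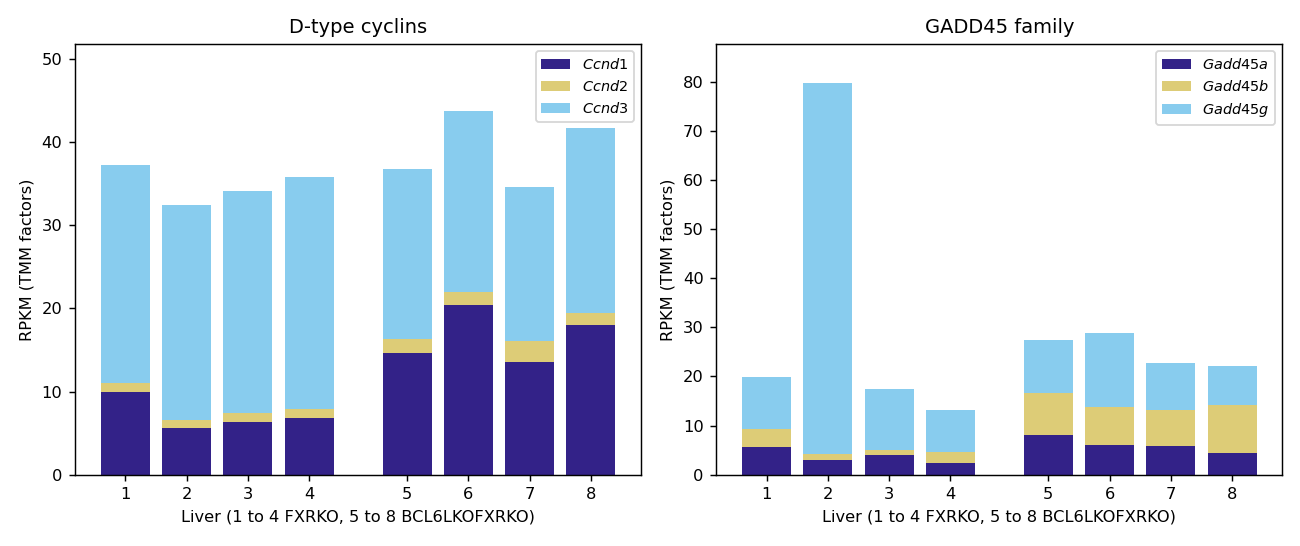
RPKM of the D-type cyclins (left) and the GADD45 genes (right), stacked to their sum (y axis, from 0), in each of livers 1 to 8 (x axis, 1 to 4 FXRKO, 5 to 8 BCL6LKOFXRKO). *Ccnd1* takes 17.3% to 26.9% of the cyclin stack in FXRKO livers and 39.2% to 46.6% in BCL6LKOFXRKO livers, and the tall GADD45 stack of liver 2 is *Gadd45g*.

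The p53 feedback genes did not separate the genotypes. *Mdm2* (NM_010786, chr10:117688875-117710758, - strand) was at 35.6, 22.5, 24.7 and 30 CPM in FXRKO and 33, 28.6, 29.8 and 22.9 CPM in BCL6LKOFXRKO livers. Its means of 28.2 ± 5.88 and 28.6 ± 4.19 CPM (SD, n = 4 each) gave a log2 fold change of 0.02 (95% interval -0.33 to 0.36, edgeR adjusted p = 0.95), an interval below the fold changes of all 6 called genes. *Trp53inp1* (NM_001199105, chr4:11156441-11174379, + strand), encoding a p53 cofactor that is itself a p53 target, was at 24.3, 38.8, 60.2 and 66.1 CPM in FXRKO and 42.5, 28, 49.2 and 25.8 CPM in BCL6LKOFXRKO livers. Both groups were spread and overlapped, with a log2 fold change of -0.38 (95% interval -1.13 to 0.37, edgeR adjusted p = 0.422).

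**Figure D3:**
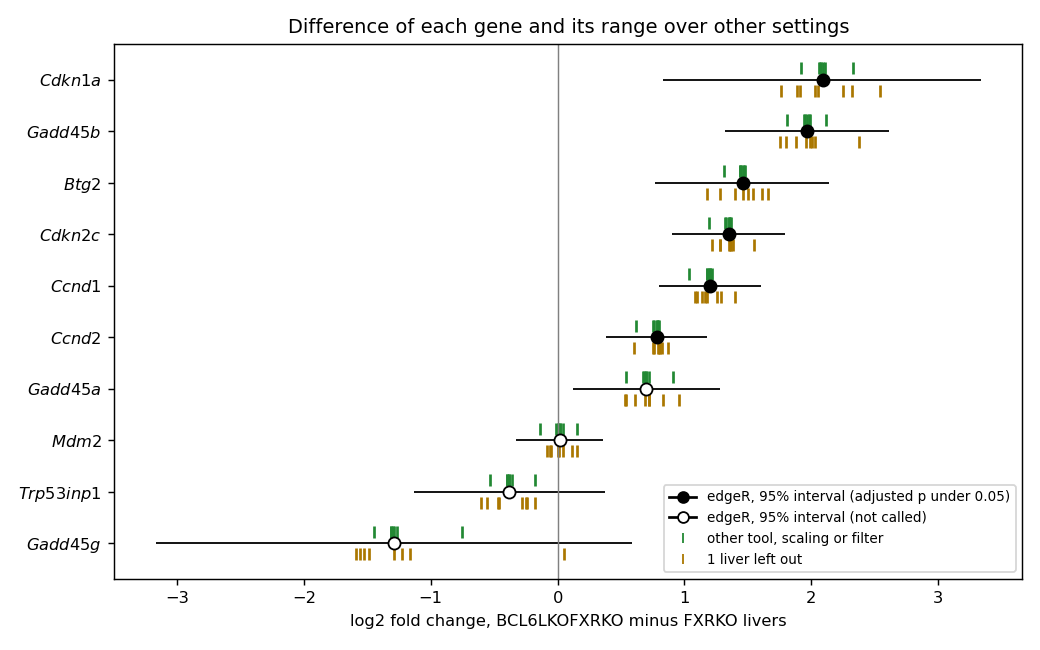
The log2 fold change of each of the 10 genes, BCL6LKOFXRKO minus FXRKO livers (x axis), with its 95% interval from the edgeR fit, not adjusted for the number of genes (bars), ordered by size. Filled points passed an adjusted p under 0.05, ticks above are other tools, scalings or filters, and ticks below leave out 1 liver each. *Cdkn1a* (2.09) and *Gadd45b* (1.97) are at the top; the intervals of *Mdm2*, *Trp53inp1* and *Gadd45g* include 0.

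A wider list held 40 p53 target genes, of which 38 were tested and 5 are among the 10. Of the 38, 11 were called higher (28.9%, against 16.2% of all tested genes) and 1 lower (2.63%, against 13.5%). Their median was 0.33 on the log2 scale. Leaving out those 5, 9 of 33 were called higher (27.3%, against 16.2% of all tested genes) and 1 lower, with a median of 0.31. *Eda2r*, a death receptor of the tumour necrosis factor family, rose by a log2 fold change of 2.53 (SE 0.31, edgeR adjusted p = 6.15e-05). In FXRKO livers it had only 10, 10, 7 and 9 counts. Also called higher on few FXRKO counts were *Tnfrsf10b* (29, 6, 5 and 8) and *Ckap2* (8, 7, 3 and 4). All of these passed the filter on low counts through the BCL6LKOFXRKO livers, where they were higher. The share called higher includes them, and the sizes of their fold changes are uncertain. *Phlda3*, an inhibitor of AKT, rose by 2.28 (SE 0.32, edgeR adjusted p = 0.000166). *Plk2*, a polo-like kinase, went from 12.7, 8.99, 7.3 and 7.65 CPM in FXRKO to 49, 41.7, 44.3 and 41.6 CPM in BCL6LKOFXRKO livers (log2 fold change 2.27, SE 0.17, edgeR adjusted p = 6.96e-07). *Tigar*, a regulator of glycolysis, was the 1 called lower (log2 fold change -0.48, edgeR adjusted p = 0.0365), and its call was lost without liver 2, 3, 4, 5, 7 or 8 (edgeR adjusted p between 0.0576 and 0.101), leaving 0 of the list called lower without liver 2, 3, 4, 5 or 7. *Ccng1*, another classical p53 target, had a log2 fold change of 0.21 (edgeR adjusted p = 0.269). Of the 13 tested genes of p53 and its regulators, 1 was called lower (7.69%, under the 13.5% of all tested genes). It was *Trp53inp2* (log2 fold change -0.70, edgeR adjusted p = 0.00136), which is known mainly as an autophagy factor. None of those 13 was called higher, against 16.2% of all tested genes, and none was higher at an unadjusted p under 0.05 or by DESeq2 or limma.

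Most other genes of the G1 machinery did not follow *Ccnd1* and *Ccnd2*. Of 24 G1 cyclins, kinases, pocket proteins and E2F factors, these 2 were called higher (8.33%, against 16.2% of all tested genes) and 4 lower (16.7%, near the 13.5% of all tested genes), and the median of the 24 was -0.16 on the log2 scale. The lower genes included *E2f7* (log2 fold change -1.35, edgeR adjusted p = 0.0101), an E2F that represses its targets, and *Tfdp2* (-0.55, edgeR adjusted p = 0.0137), a partner of E2F factors. *E2f7* had only 23, 12, 13 and 13 counts in FXRKO and 6, 5, 6 and 8 in BCL6LKOFXRKO livers. It passed the filter on low counts through the FXRKO livers, and the size of its fold change is uncertain. *Cdk4*, the kinase bound by the D-type cyclins, had a log2 fold change of 0.11 (edgeR adjusted p = 0.543). Scaling by total counts alone raised the number called lower to 9. In the list of S phase and mitosis genes, 6 of 24 tested genes were called higher (25%, against 16.2% of all) and 1 lower (4.17%, against 13.5%). The median log2 fold change was 0.42, and 10 were called higher without liver 7. *Mki67*, a proliferation marker, went from 3.85, 2.75, 2.79 and 1.98 CPM in FXRKO to 15.1, 11.6, 6.32 and 8.61 CPM in BCL6LKOFXRKO livers (log2 fold change 1.87, edgeR adjusted p = 0.000367). *Top2a*, a topoisomerase of dividing cells, rose by a log2 fold change of 1.29 (edgeR adjusted p = 0.00442) and *Ccna2*, encoding cyclin A2, by 0.81 (edgeR adjusted p = 0.0134). *Tk1*, a thymidine kinase of S phase, fell by 0.93 on the log2 scale (edgeR adjusted p = 0.00114).

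Early response and stress lists were read beside *Btg2* and the GADD45 genes, which many of the same stimuli induce. Of 19 tested immediate early genes, 7 were called higher (36.8%, against 16.2% of all tested genes), or 4 without liver 3, 4 or 8, and their median was 0.84 on the log2 scale. None was called lower, against 13.5% of all tested genes, and none was lower at an unadjusted p under 0.05 or by DESeq2 or limma. Among them were *Egr1* (log2 fold change 2.34, edgeR adjusted p = 0.00131), *Klf6* (2.05, edgeR adjusted p = 0.000179) and *Ier3* (2.04, edgeR adjusted p = 0.00046). Summed over that list, liver 7 was the highest at 707 CPM, against 428 to 527 CPM in the other BCL6LKOFXRKO livers and 216 to 362 CPM in FXRKO livers, and liver 7 also had the highest *Btg2* and *Ccnd2*. The part of the early response in those 2 values was not tested. Of 12 genes of the integrated stress response, 4 were called higher (33.3%, against 16.2% of all tested genes) and 1 lower (8.33%, against 13.5%). Their median log2 fold change was 0.25, with 8 genes above 0 and 4 below. Only 2 of the 12 were called higher without liver 2, 3, 4 or 8, without the filter, or with at least 10 counts required in every liver. *Vldlr*, a lipoprotein receptor, rose by a log2 fold change of 2.48 (edgeR adjusted p = 1.5e-05) and *Atf3*, a stress-induced transcription factor, by 1.87 (edgeR adjusted p = 0.0274). *Fgf21*, a hepatic stress hormone, rose by 3.01 (edgeR adjusted p = 0.00192). It had only 7, 1, 0 and 2 counts in FXRKO livers, against 36, 17, 16 and 19 in BCL6LKOFXRKO livers. It thus passed the filter on low counts through the BCL6LKOFXRKO livers alone, and the size of its fold change is uncertain. The call of *Atf3* was lost without liver 2, 3, 4, 7 or 8 (edgeR adjusted p between 0.0572 and 0.0857) or without the filter (0.0741). *Cebpb* was lower (log2 fold change -0.62, edgeR adjusted p = 0.00328).

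**Figure D4:**
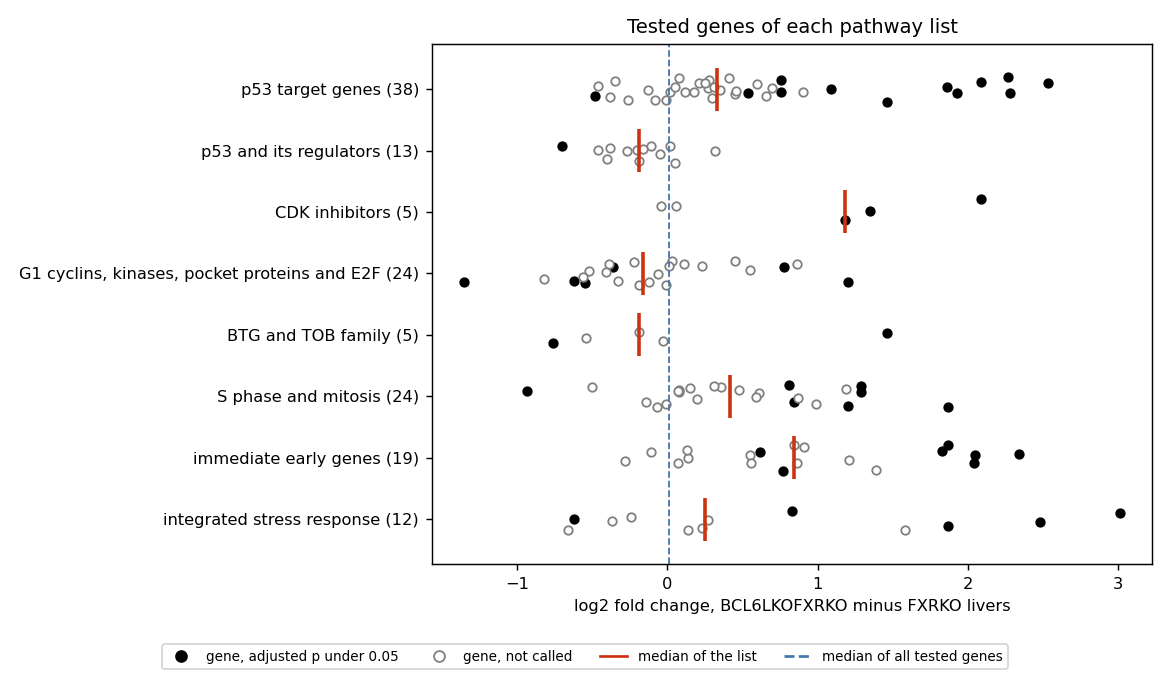
The log2 fold change, BCL6LKOFXRKO minus FXRKO livers (x axis), of every tested gene of each pathway list (rows, number tested in parentheses); filled points passed an adjusted p under 0.05, vertical bars are list medians and the dashed line is the median of all tested genes (0.01). Immediate early genes (median 0.84) lie mostly to the right, and p53 and its regulators (-0.19) to the left. The median of the 5 tested CDK inhibitors (1.18) includes *Cdkn1a* and *Cdkn2c*, and that of the other 3 is 0.06.

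Summed markers of hepatocytes, stellate cells and fibroblasts, cholangiocytes and lymphocytes were higher in every BCL6LKOFXRKO liver than in any FXRKO liver. Those of macrophages and monocytes and of endothelial cells overlapped. Of 12 stellate cell and fibroblast markers, 9 were called higher (75%, against 16.2% of all tested genes), and their summed level was 232 to 328 CPM in FXRKO and 472 to 591 CPM in BCL6LKOFXRKO livers. Cholangiocyte markers summed to 59.5 to 86.8 CPM and 94.2 to 158 CPM, with 3 of 7 tested called higher (42.9%). Most of that sum was 1 gene, *Spp1*, at 36.6 to 53.6 CPM and 66.1 to 123 CPM, so its separation leans on *Spp1*. Of the 3 called, *Cldn4* had only 3, 4, 2 and 4 counts in FXRKO livers and *Krt19* 20, 6, 5 and 8. Both passed the filter on low counts through the BCL6LKOFXRKO livers, where they were higher. *Sox9* was the 1 tested cholangiocyte marker with a log2 fold change below 0 (-0.81, edgeR adjusted p = 0.0773). Macrophage and monocyte markers summed to 386 to 548 CPM and 540 to 869 CPM (3 of 10, or 30%, higher), endothelial markers to 171 to 239 CPM and 238 to 305 CPM (2 of 10, or 20%, higher, close to the share of all genes), and lymphocyte markers to 9.35 to 12.2 CPM and 15.1 to 21.9 CPM, with 1 gene tested. That gene, *Ptprc*, made up much of the lymphocyte sum. It was called higher but overlapped between genotypes, at 4.83 to 9.04 CPM in FXRKO and 8.34 to 14.5 CPM in BCL6LKOFXRKO livers. Of 9 hepatocyte markers, 1 was called higher (11.1%, against 16.2% of all tested genes), albumin (log2 fold change 1.60), and 4 lower (44.4%, against 13.5%). Their sum was 59400 to 73400 CPM in FXRKO and 145000 to 164000 CPM in BCL6LKOFXRKO livers. Most of it was albumin, at 38200 to 48500 CPM and 128000 to 147000 CPM. No listed marker was at 0 in all livers. In bulk liver, more cells of a type and more RNA per cell cannot be told apart, and the part of cell composition in the rise of *Cdkn1a*, *Ccnd1*, *Ccnd2*, *Cdkn2c*, *Btg2* and *Gadd45b* was not tested.

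Per length, the order of the 10 genes changed between genotypes. In FXRKO livers *Gadd45g* was at the top with a mean of 26.7 RPKM that rests on liver 2 (median 11.4 RPKM). It was followed by *Mdm2* (9.14 ± 1.91 RPKM), *Trp53inp1* (8.73 ± 3.56) and *Ccnd1* (7.21 ± 1.96), all values being mean RPKM ± SD with n = 4. Then came *Btg2* (6 ± 2.01 RPKM), *Gadd45a* (3.74 ± 1.41), *Cdkn1a* (3.47 ± 2.42), *Gadd45b* (2.11 ± 1.2), *Cdkn2c* (2.01 ± 0.59) and *Ccnd2* (1.05 ± 0.0443). In BCL6LKOFXRKO livers *Ccnd1* (16.6 ± 3.13 RPKM), *Btg2* (16.4 ± 6.31) and *Cdkn1a* (14.7 ± 5.29) led, ahead of *Gadd45g* (10.9 ± 2.99) and *Mdm2* (9.26 ± 1.36). Below them were *Gadd45b* (8.36 ± 1.07 RPKM), *Trp53inp1* (6.71 ± 2.09), *Gadd45a* (6.1 ± 1.48), *Cdkn2c* (5.17 ± 0.486) and *Ccnd2* (1.8 ± 0.437). In both genotypes neighbours in this order overlapped in range, except *Cdkn2c* and *Ccnd2* at the lower end.

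For each called gene, the tested genes with the most similar profile were those with the smallest mean absolute difference in centred log2 CPM over the 8 livers. *Cdkn1a* was nearest to *Nupr1* (0.24), *Fam84a* (0.34) and *Id1* (0.35). *Ccnd1* was nearest to *Mir5107* (0.10), *Smoc2* (0.12) and *Taf1c* (0.13), and *Ccnd2* to *Asap1* (0.09), *Lamc1* (0.09) and *Trim62* (0.10). *Cdkn2c* was nearest to *C1qtnf7* (0.12), *Galns* (0.12) and *Olfml3* (0.15), *Btg2* to *Dagla* (0.23), *Irs2* (0.25) and *Gatsl2* (0.26), and *Gadd45b* to *Anxa2* (0.20), *Aldh18a1* (0.21) and *Sytl5* (0.22).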

How the data were processed

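Poly(A) RNA from 4 FXRKO and 4 BCL6LKOFXRKO livers was sequenced by the authors as stranded single-end libraries, aligned to mm10 with STAR 2.5.2 and counted over exons per RefSeq gene with HOMER 4.10. The deposited values are raw counts by the authors, whole numbers without normalisation. Whether counting used strand is not given in the sources used here. Livers were numbered 1 to 8 in sample order.

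Genes passing filterByExpr (12340 of 24940) were tested with edgeR 4.0.16 (robust quasi-likelihood, TMM factors, R 4.3.3), with Benjamini-Hochberg adjustment over all tested genes, and called at an adjusted p under 0.05. The filter accepts a gene with enough counts in the livers of a single genotype. Listed genes with few counts in the other genotype could therefore enter through the group where they were higher. DESeq2 1.42.0, limma 3.58.1 (voom with sample quality weights), other scalings, other filters, a minimum absolute log2 fold change of 0.5 and leaving out each liver were alternatives. The procedure was tested on simulated data. Single values were compared with an exact two-sided permutation test over the 70 groupings of 8 livers (smallest p 0.029). RPKM used the table's gene lengths and TMM-scaled counts.

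The 10 genes and the pathway and marker lists were chosen with earlier results of these data known. From each list, up to 3 called genes outside the 10 were named for each direction, by smallest adjusted p. The level of 1 further gene is not reported here. *Cdk4*, *Cdkn1b*, *Ccng1* and *Sox9* were named after their values were seen. Promoter windows came from RefSeq on GRCm38.p6, which gave none for *Ccnd1*, *Ccnd2* and *Trp53inp1*. Replicate livers were separate animals, and replicates differed by more than counting noise.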

Additional observations from a re-analysis of the deposited data

Results flagged for a closer look

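Within each genotype, the highest and lowest liver was compared with its nearest neighbour for the 10 genes and the summed lists, and a gap taking up most of the group's range was singled out (Dixon's criterion). This was so in 6 of 48 groups of 4 livers, and chance gives about 1 in 20. For *Gadd45g*, FXRKO liver 2 was at 81 CPM against 9.07 to 13.2 CPM in the other FXRKO livers, a gap of 0.943 of the range. The summed p53 target genes were lower in BCL6LKOFXRKO liver 6 (999 CPM) than in its group (1080 to 1090 CPM; gap 0.902). The summed S phase and mitosis genes were lower in FXRKO liver 3 (124 CPM, others 138 to 141 CPM; gap 0.833) and in BCL6LKOFXRKO liver 7 (135 CPM, others 160 to 161 CPM; gap 0.937). Summed stellate cell and fibroblast markers were higher in BCL6LKOFXRKO liver 6 (591 CPM, others 472 to 482 CPM; gap 0.917), and summed macrophage and monocyte markers in BCL6LKOFXRKO liver 8 (869 CPM, others 540 to 595 CPM; gap 0.834).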

How the results depend on the processing

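Across the alternatives tried, 5 to 7 of the 10 genes were called higher and none lower. *Ccnd1*, *Ccnd2*, *Cdkn2c*, *Btg2* and *Gadd45b* kept direction and call under every alternative. *Cdkn1a* kept its direction, and its adjusted p ran from 0.00432 to 0.0654. Called lower were 2 p53 target genes in limma and 2 with total counts alone (0 to 1 when single livers were left out), and with total counts alone also 3 p53 regulators, 9 G1 genes and 2 S phase and mitosis genes, a scaling that shifts the median gene by -0.16. The integrated stress response had 2 called higher without the filter and 2 with at least 10 counts in every liver. Leaving out single livers gave 1 to 3 CDK inhibitors, 5 to 10 S phase and mitosis genes, 4 to 8 immediate early genes and 2 to 5 integrated stress response genes called higher. The cause of these differences was not tested. The log2 fold change of *Mdm2*, close to 0 throughout, was -0.14 with total counts alone, 0 with the 50 most counted genes left out and -0.01 without the filter, and it ran from -0.08 to 0.15 when single livers were left out. That of *Gadd45g* ran from -1.59 to 0.05. DESeq2 gave no adjusted p for *Gadd45g*. No paired analysis was possible because the labels give no number shared between the genotypes. Depth limits genes with few counts, such as *Gadd45a* and *Gadd45b* in FXRKO livers.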
